A study of Mus musculus with 4 samples.

Results

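The citrate cycle oxidises acetyl groups in the mitochondrial matrix, and the 30 genes described here encode its enzymes together with those that feed it from pyruvate and glutamine and those that draw citrate out of it. They were taken by gene symbol, as a set of named enzymes of mitochondrial carbon metabolism and of the reactions that join it to pyruvate and malate, and each of the 30 symbols matched 1 of the 50600 genes in the deposited tables. The data were RNA sequencing counts from 4 libraries of mouse Th17 cells, a class of CD4 T helper cell named for the interleukin 17 it releases. All 4 libraries form 1 group of biological replicates, numbered 1 to 4. The cells were primary cells of strain C57BL/6NJ, with no added allele, agent or control arm given in the labels, and with age and sex not recorded. The labels point to a protocol for differentiating CD4 T cells and the file headers to a time of 72 hr. The biosamples carry a common donor identifier, and nothing says whether they came from separate animals, so p-values measure only the spread between these libraries, which may be technical. The only comparisons that the design allows are between genes within a library and between a replicate and the other 3.

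Pyruvate enters the cycle through the pyruvate dehydrogenase complex, or as oxaloacetate through pyruvate carboxylase, and glutamine carbon enters as oxoglutarate through glutamate dehydrogenase or the transaminases. Citrate can leave through the mitochondrial carrier and be cleaved in the cytosol to acetyl-CoA, the building block of fatty acids and sterols, and cytosolic isocitrate dehydrogenase and malic enzyme make NADPH. Dividing T cells use glucose and glutamine heavily, and Th17 differentiation in mice has been linked to fatty acid synthesis, to glutaminase and to the cytosolic aspartate transaminase.

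Total counts ranged from 33123029 to 37746767 per library, and the 30 genes held 0.554% of them in replicate 2 and 0.579% to 0.587% in the other 3. Replicate 2 stood apart from the other libraries before any enzyme was considered. The summed level of 7 Th17 markers was 1434 TPM in replicate 2, against 5456 to 6218 TPM in replicates 1, 3 and 4, with 5 of the 7 lower by the edgeR test described further on (TPM is a gene's count divided by its exon length and scaled to the same total in each library). The sum of 8 pan-T cell markers was 4622 TPM in replicate 2, against 4606 to 4825 TPM. In the same fit the log2 changes of these 8 genes in replicate 2 ran from −0.11 for Trbc2 to 0.22 for Cd5. Markers of B cells summed to 2.23 TPM in replicate 2, against 1.87 to 2.11 TPM, and epithelial and stromal markers to 2.92 TPM, against 4.58 to 5.47 TPM. Myeloid and dendritic markers summed to 34.9 TPM in replicate 2, against 21.6 to 23.0 TPM. Of these 8 genes 1 was higher, 1 was lower, 5 had no call and Lyz2 had no count in any library. The higher one was Flt3, a receptor of dendritic and early progenitor cells, with 11.5 TPM in replicate 2, against 1.29, 0.848 and 0.882 TPM, and the lower one was Adgre1, a macrophage surface protein, with 5.73 TPM in replicate 2, against 8.90, 8.77 and 8.42 TPM (edgeR, adjusted p = 3.32e-12 and 0.0136). Both CD8 markers together had 31.6 TPM in replicate 2, against 41.7 to 48.0 TPM, nearly all of it Cd8b1, as Cd8a had 0 to 3 counts per library. The log2 change of Cd8b1 in replicate 2 was −0.47. The part of these differences in the results below was not tested. In RNA from many cells, fewer cells of a type and less RNA per cell cannot be told apart.

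Most of the enzymes were abundant. Of the 30 genes, 19 averaged at least 100 TPM, 9 lay between 10 and 100 TPM, and 2, the malic enzymes Me1 and Me3, lay below 1 TPM. The median of the 30 means was 148 TPM. Their summed level was 4823 TPM in replicate 2, against 5303, 5274 and 5263 TPM in replicates 1, 3 and 4 (5166 ± 229 TPM, mean ± SD, n = 4). Replicate 2 was the low library for the sum, and without it the mean was 5279.95 ± 20.4 TPM (n = 3). The difference was uneven over the set. The 12 genes of the citrate cycle summed to 2165 TPM in replicate 2, against 2184, 2199 and 2201 TPM. The 5 transaminase, shuttle and glutamate genes summed to 967 TPM in replicate 2, against 1165, 1111 and 1098 TPM. Sums of the other roles were also lowest in replicate 2.

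**Figure D1:**
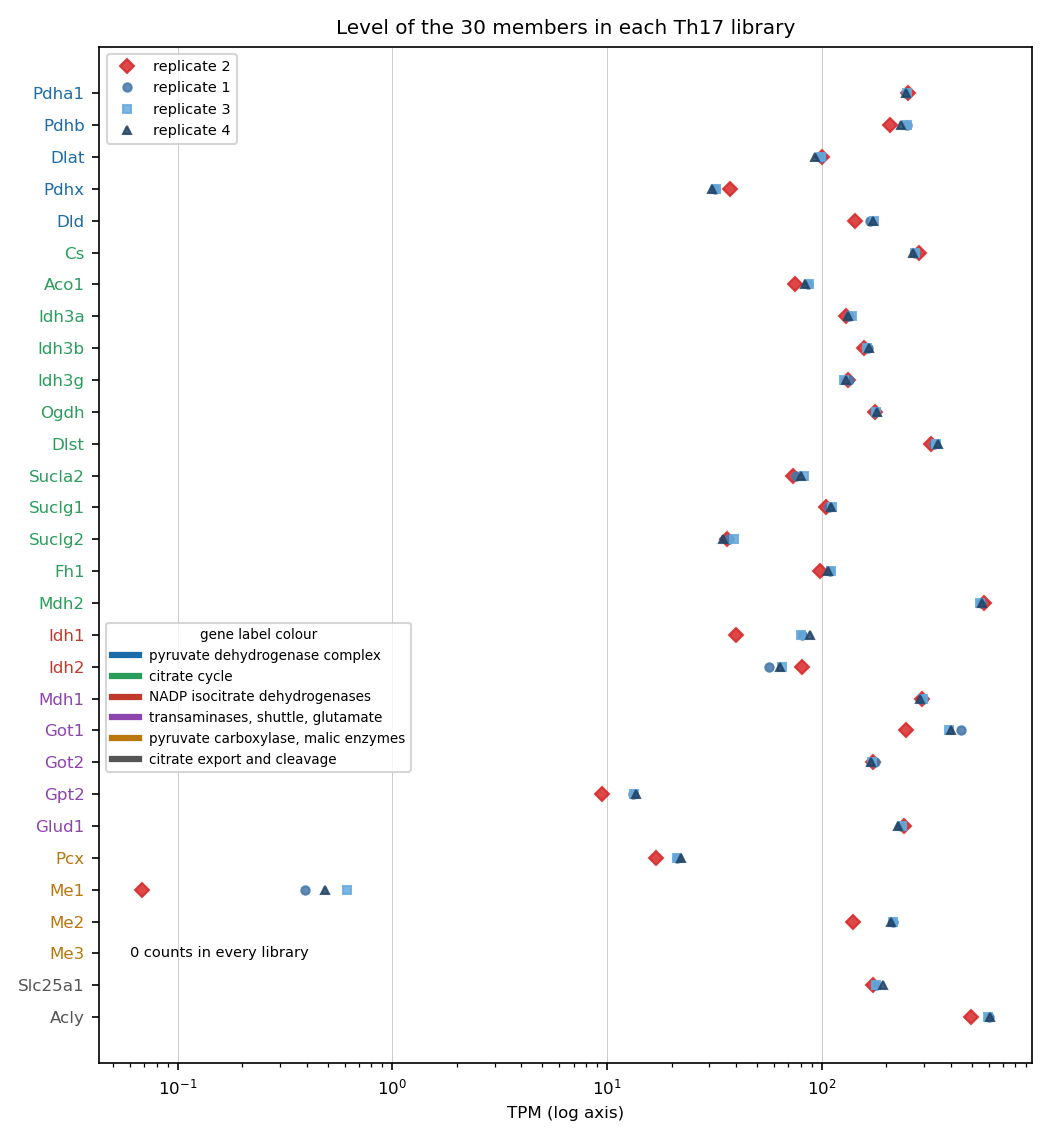
TPM of each gene (log axis) in the 4 libraries, with replicate 2 as a red diamond and gene names coloured by role. For most genes the 4 points fall together, whereas Idh1, Got1, Gpt2, Me1, Me2 and Acly have replicate 2 to the left and Idh2 has it to the right; Me3 had no counts.

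The pyruvate dehydrogenase complex joins 3 catalytic parts, and its subunit genes covered a wide range of levels. Pdha1, the alpha subunit of the decarboxylase and the target of its regulatory phosphorylation, averaged 249 ± 2.75 TPM, and Pdhb, its beta subunit, 235 ± 19.6 TPM (mean ± SD, n = 4 here and below). Dlat, the transacetylase that forms the core, averaged 98.2 ± 3.41 TPM. Pdhx, which tethers the last enzyme to that core, had 33.0 ± 2.88 TPM, the lowest of the complex. Dld, the lipoamide dehydrogenase that the pyruvate and oxoglutarate complexes share, had 165 ± 15.0 TPM. Within a library Dlat stood at 0.394 ± 0.0113 of Pdha1 and Pdhx at 0.336 ± 0.0233 of Dlat, in 4 of 4 libraries each. The Pdhb to Pdha1 ratio was 0.945 ± 0.0861 and crossed 1, being above it in replicate 1 alone. That closeness depends on length: the mean log2 ratio was −0.09 per base of exon, but −1.42 with no length correction and −1.30 per coding base, below 0 in 4 of 4 libraries under both. Reads of Pdhb are uncertain, because 71.2% of its transcript has a match of at least 95% identity in the gene Gm6123, and reads that fit both places would be left out under the default of the counter.

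The cycle enzymes themselves were even between libraries. Mdh2, which regenerates oxaloacetate, led with 558 ± 12.1 TPM, at the 98.3rd percentile of the protein-coding genes with at least 10 counts over the libraries. Dlst, the succinyltransferase core of the oxoglutarate dehydrogenase complex, followed with 337 ± 10.3 TPM, and Cs, which joins acetyl-CoA to oxaloacetate, with 274 ± 8.23 TPM. Ogdh, the decarboxylase of the oxoglutarate complex, had 179 ± 1.77 TPM. Dlst thus stood at 1.89 ± 0.0401 times Ogdh per base of exon, a mean log2 ratio of 0.91, which was −0.0646 with no length correction and 1.12 per coding base. Fh1, the fumarase, had 106 ± 5.57 TPM and Aco1, the cytosolic aconitase that also acts as an iron sensor, 83.1 ± 5.73 TPM.

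NAD-dependent isocitrate dehydrogenase combines the catalytic subunit Idh3a with the regulatory subunits Idh3b and Idh3g. Idh3b had 158 TPM in replicate 2 and 164, 163 and 167 TPM in replicates 1, 3 and 4. Idh3a had 129 TPM in replicate 2 and 133.6, 139 and 133 TPM in the others. Idh3g had 132 TPM in replicate 2 and 133.8, 127 and 130 TPM in the others. The levels of Idh3a and Idh3g overlapped, with a ratio of 0.978 ± 0.0479, and Idh3b lay above both in every library, at 1.22 ± 0.0354 times Idh3a. Both statements depend on length. With no length correction, and also per coding base, Idh3b lay below Idh3a (mean log2 ratio −0.28 under both). Idh3g then lay below Idh3a in 4 of 4 libraries, with a mean log2 ratio of −0.94 with no length correction and −0.98 per coding base.

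Succinyl-CoA ligase makes ATP or GTP, depending on its beta subunit. Suclg1, the common alpha subunit, averaged 109 ± 2.84 TPM. Sucla2, the ATP-forming beta subunit, had 78.0 ± 4.18 TPM, and Suclg2, the GTP-forming one, 36.7 ± 1.92 TPM. The Suclg2 to Sucla2 ratio was 0.472 ± 0.0281 and below 1 in 4 of 4 libraries. The gene Gm15163 matches 38.7% of the Suclg2 transcript, and its part in the level of Suclg2 was not tested.

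Enzymes with a mitochondrial and a cytosolic form did not follow a common pattern. Mdh2 stood at 1.90 ± 0.0618 times Mdh1, the cytosolic malate dehydrogenase (294 ± 4.92 TPM), in 4 of 4 libraries. Got2, the mitochondrial aspartate transaminase (173 ± 3.08 TPM), stood below Got1, its cytosolic partner (371 ± 85.0 TPM), with a ratio of 0.490 ± 0.139. Per base of exon the mean log2 ratio was −1.07, below 0 in 4 of 4 libraries, but it was −0.14 with no length correction and −0.20 per coding base, and then not on the same side in every library. The Got2 level is uncertain, as other genes match 72.5% of its transcript. Glud1, glutamate dehydrogenase, averaged 235 ± 6.86 TPM, whereas Gpt2, the mitochondrial alanine transaminase, had 12.4 ± 1.97 TPM, at the 41.7th percentile.

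Pyruvate carboxylase and the malic enzymes spanned the widest range of levels. Me2, the mitochondrial malic enzyme, averaged 195 ± 36.9 TPM, and Pcx, pyruvate carboxylase, 20.4 ± 2.33 TPM. Me1, the cytosolic malic enzyme, had 3 counts in replicate 2 and 15, 25 and 21 counts in replicates 1, 3 and 4, or 0.392 ± 0.235 TPM. Me3, the other mitochondrial malic enzyme, had 0 counts in each library, which allows up to 0.0207 TPM at 3 counts (a limit for counting error only). Acly, which cleaves citrate in the cytosol, had the highest mean of the 30 genes at 576 ± 52.1 TPM. In replicate 2 it had 498 TPM, below Mdh2 at 573 TPM. Per coding base (3303 bases for Acly, 1014 for Mdh2) Acly stood below Mdh2 in every library. Slc25a1, the carrier that brings citrate out, had 181 ± 8.68 TPM. Acly stood at 3.18 ± 0.224 times Slc25a1, a mean log2 ratio of 1.67 that was 2.94 with no length correction and 1.12 per coding base.

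When the 30 genes were ordered by mean TPM, the ranges over 4 libraries overlapped for 16 of the 29 pairs of neighbours, so much of the order in the middle is not resolved. Acly and Mdh2 at the top overlapped, as did Got1 and Dlst below them. The run from Me2 through Slc25a1, Ogdh, Got2 and Dld to Idh3b overlapped at each step, and so did that from Aco1 through Sucla2 and Idh1 to Idh2. Compared within a library, however, Ogdh stood above Got2 and Aco1 above Sucla2 in 4 of 4 libraries. Both orders hold per base of exon and reverse per coding base. Coding length is 3102 bases for Ogdh against 1290 for Got2, and 2667 for Aco1 against 1389 for Sucla2. The other overlapping pairs kept the order of their means in 2 or 3 libraries. Of the 12 isoenzyme and subunit ratios, 9 lay on the same side of 1 in all 4 libraries, 5 above it and 4 below. With no length correction, and also per coding base, 10 did, and they were not the same ratios: Got2 to Got1 dropped out, and Idh3g to Idh3a and Pdhb to Pdha1 came in. None can pass a test over 4 libraries: the exact two-sided sign-flip p was 0.125 for each of the 9, the smallest that 4 libraries allow, with a Benjamini-Hochberg adjusted value of 0.167 over the 12 ratios. The remaining ratios were Idh2 to Idh1 (exact p = 1, adjusted 1), Idh3g to Idh3a (exact p = 0.5, adjusted 0.545) and Pdhb to Pdha1 (exact p = 0.375, adjusted 0.45).

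**Figure D2:**
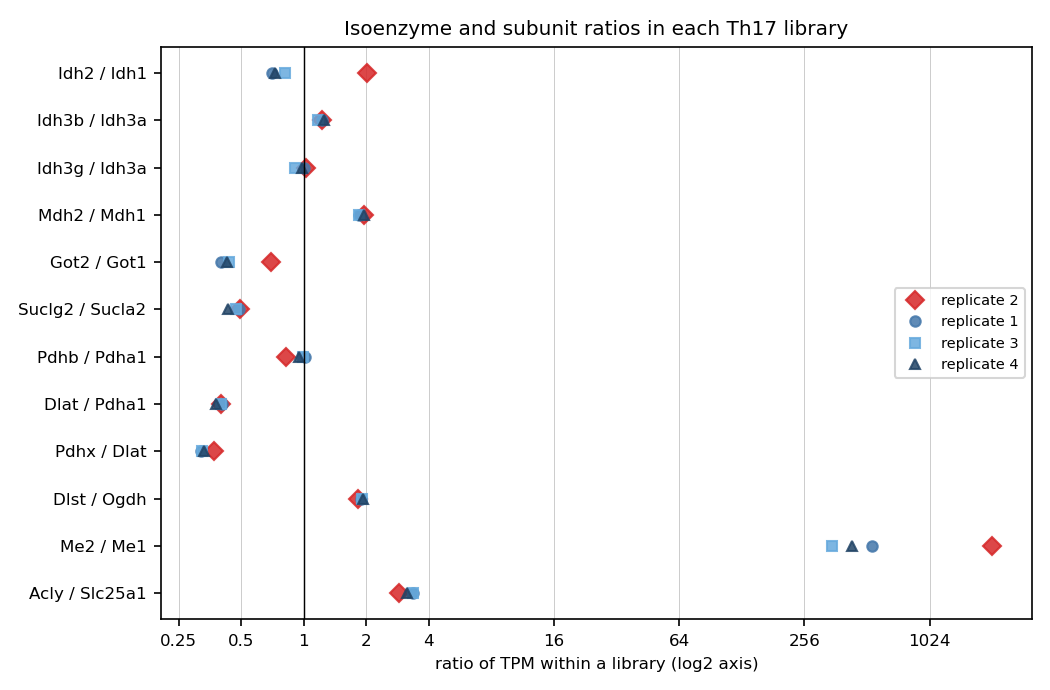
Ratio of TPM between paired genes within each library (log2 axis, line at 1), with replicate 2 as a red diamond. Most ratios fall together over the 4 libraries, whereas Idh2 to Idh1 is 2.02 in replicate 2 and 0.704 to 0.812 in the others, and Got2 to Got1 is 0.698 in replicate 2 and 0.400 to 0.438 in the others.

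Differences between libraries were then tested by comparing each replicate with the other 3 (edgeR, quasi-likelihood) over 17337 genes with at least 10 counts in all, of which 29 were enzymes of the set (Me3 was not tested). Such a test compares 1 library with 3, not conditions, and takes the spread of the single library to equal that of the rest. In replicate 2, Idh1 and Got1 fell, Me2, Gpt2 and Acly fell less, and Idh2 rose, while most subunits of the cycle showed little difference. In all, 10 enzymes were lower and 3 higher, 13 of 29 or 44.8%, where 22.5% of all genes tested were called (10.9% lower and 11.7% higher). Among genes averaging at least 5 TPM, which are called more often, the shares were 42.9% of 28 enzymes and 31.1% of 10226 genes (14.5% lower and 16.6% higher). DESeq2 called 10 enzymes, 6 lower and 4 higher, where 22.1% of the genes it adjusted were called. The changes were small: the median absolute log2 change of the called enzymes was 0.30, against 0.39 for all called genes, and only Me1 passed 2-fold, where 4.52% of all genes did. The median log2 change over all 29 enzymes was −0.01, the same as over all genes tested. Among genes of at least 5 TPM the enzymes had the higher median level, 164 TPM against 37.1 TPM for all genes. The part of level in the shares called was not tested.

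No enzyme was called in replicate 1, 3 or 4, and no gene of the whole table was (edgeR, 0% in each). At an unadjusted p under 0.05, edgeR gave 0 of 29 enzymes in each of these replicates, where 0.957%, 1.48% and 0.738% of all genes passed in replicates 1, 3 and 4. DESeq2 called no enzyme in them either, with 2 genes (0.0115%), 15 genes (0.0865%) and 3 genes (0.0173%) of the whole table in replicates 1, 3 and 4. Replicate 2 is among the other 3 libraries in each of those comparisons. Without it edgeR called 68, 108 and 9 genes in replicates 1, 3 and 4, and still no enzyme.

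**Figure D3:**
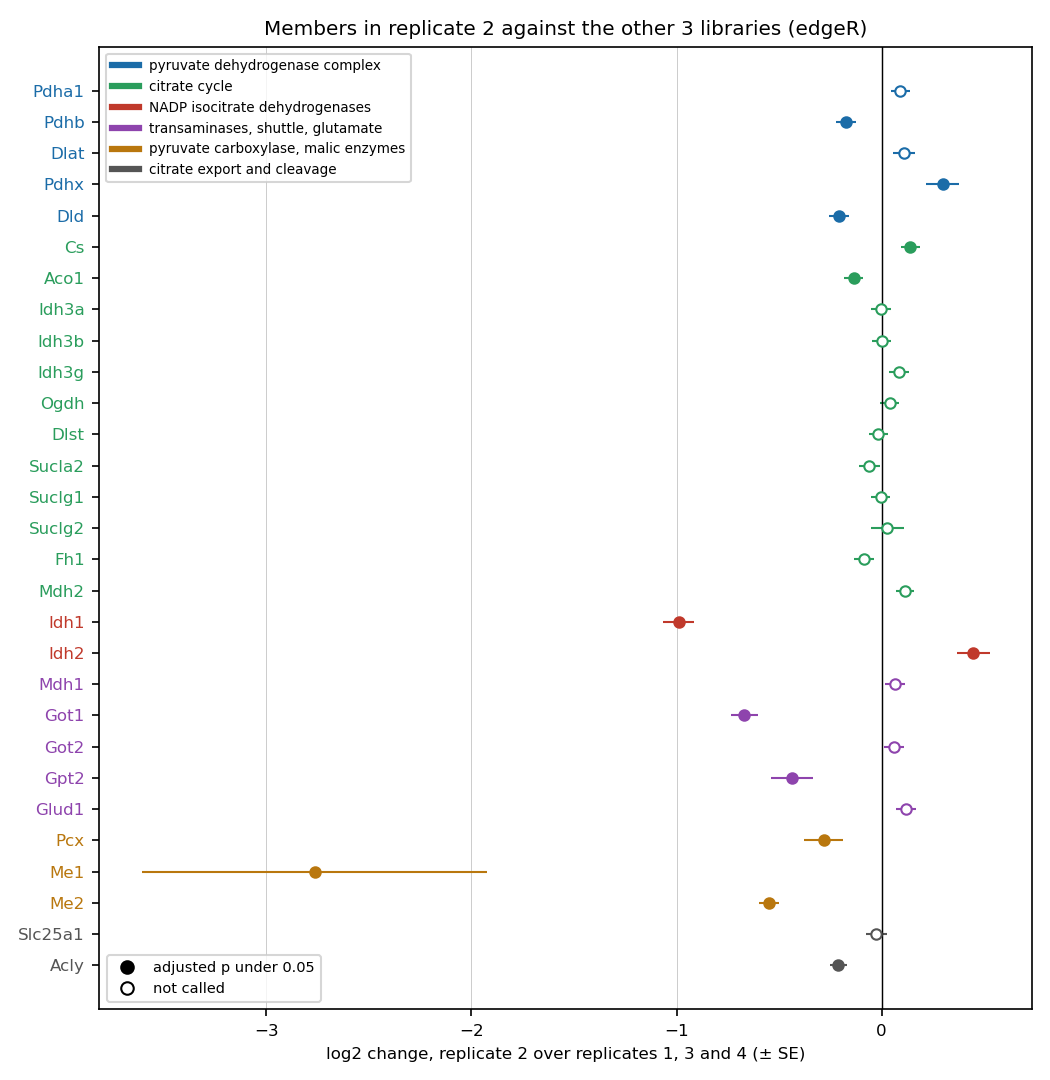
Log2 change of each enzyme in replicate 2 over replicates 1, 3 and 4 (edgeR, bars ± SE); filled points passed an adjusted p of 0.05. The 12 genes of the citrate cycle lie close to 0, Idh1 lies at −0.99 and Idh2 at 0.45, and the wide bar of Me1 rests on 3 counts.

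The NADP-dependent isocitrate dehydrogenases moved in opposite directions. Idh1, the cytosolic enzyme (ENSMUSG00000025950.16, mm10 chromosome 1, bases 65158616 to 65186500, minus strand, protein-coding), had 40.1 TPM in replicate 2, against 80.7, 80.1 and 88.1 TPM in replicates 1, 3 and 4. Idh2, the mitochondrial enzyme (ENSMUSG00000030541.16, chromosome 7, bases 80094846 to 80115392, minus strand, protein-coding), had 81.1 TPM in replicate 2, against 56.8, 65.1 and 64.3 TPM. Replicate 2 lay below the range of the others for Idh1, as for 43.2% of all genes tested, and above it for Idh2, as for 28.2%. The log2 change of Idh1 was −0.99 ± 0.08 (SE) and that of Idh2 0.45 ± 0.08 (edgeR, Benjamini-Hochberg adjusted p = 4.22e-09 and 0.000263). Idh1 was therefore the higher of the pair in replicates 1, 3 and 4 and Idh2 in replicate 2. The mean log2 ratio of Idh2 to Idh1 was −0.06 over 4 libraries and −0.42 without replicate 2.

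Got1 showed the second-largest fall among enzymes above 1 TPM. Got1 (ENSMUSG00000025190.13, chromosome 19, bases 43499752 to 43524605, minus strand, protein-coding) had 248 TPM in replicate 2, against 444, 391 and 401 TPM in replicates 1, 3 and 4. Its log2 change was −0.67 ± 0.07 (edgeR, adjusted p = 3.19e-06). Got2 had 173 TPM in replicate 2, against 178, 171 and 171 TPM, inside the range of the others, with a log2 change of 0.06 ± 0.05 (edgeR, adjusted p = 0.425). Mdh1 and Mdh2, the other enzymes of the malate-aspartate shuttle, had changes of 0.06 ± 0.05 and 0.11 ± 0.04 with no call by edgeR; DESeq2 called Mdh2 higher (adjusted p = 0.0406).

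The start regions of the 3 genes are shown because they carried the largest differences between replicate 2 and the others among genes above 1 TPM whose sequence was at hand. Each line gives the 250 bases before a RefSeq transcription start (GRCm38.p6, the mm10 assembly), read 5′ to 3′ on the minus strand, on which all 3 genes lie. RefSeq lists a pair of starts for Idh1, and gene counts do not tell which was used. The last bases of the Idh2 window and of the upstream Idh1 window lie inside the gene spans of GENCODE given above. The downstream Idh1 window lies wholly inside the Idh1 span. Capitals mark 4 motifs on either strand: the GC box GGGCGG, the CCAAT box CCAAT, the E-box CACGTG and the amino acid response element TGATGNAA. The last motif was chosen after the sequences had been seen.
Idh1, upstream start, chr1:65186480-65186729: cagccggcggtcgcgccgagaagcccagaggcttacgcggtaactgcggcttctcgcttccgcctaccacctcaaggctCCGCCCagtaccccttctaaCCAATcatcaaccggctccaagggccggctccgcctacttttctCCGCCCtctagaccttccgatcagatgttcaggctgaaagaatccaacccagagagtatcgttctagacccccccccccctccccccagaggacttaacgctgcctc
Idh1, downstream start, chr1:65179143-65179392: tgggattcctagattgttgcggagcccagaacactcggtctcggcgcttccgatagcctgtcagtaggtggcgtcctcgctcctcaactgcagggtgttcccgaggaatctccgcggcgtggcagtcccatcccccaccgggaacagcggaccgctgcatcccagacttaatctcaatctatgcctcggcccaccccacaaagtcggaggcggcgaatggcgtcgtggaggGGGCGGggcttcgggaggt
Idh2, chr7:80115351-80115600: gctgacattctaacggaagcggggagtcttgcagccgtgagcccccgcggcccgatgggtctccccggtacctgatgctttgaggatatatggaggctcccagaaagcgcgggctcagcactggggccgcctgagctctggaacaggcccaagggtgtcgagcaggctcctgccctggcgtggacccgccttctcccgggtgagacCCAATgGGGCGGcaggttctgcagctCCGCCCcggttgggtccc
Got1, chr19:43524606-43524855: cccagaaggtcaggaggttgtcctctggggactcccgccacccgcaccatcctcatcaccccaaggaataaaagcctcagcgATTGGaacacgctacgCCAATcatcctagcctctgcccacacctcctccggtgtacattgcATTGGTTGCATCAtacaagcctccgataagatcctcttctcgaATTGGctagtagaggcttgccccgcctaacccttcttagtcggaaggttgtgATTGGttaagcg

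The 4 windows differed in their motifs. The Got1 window held 5 CCAAT boxes, 1 of them directly beside its amino acid response element, and no GC box. The Idh2 window held 1 CCAAT box and 2 GC boxes within 44 bases of the start. The upstream Idh1 window also held 1 CCAAT box and 2 GC boxes, and the downstream one a GC box alone. No window held an E-box. Over the 32851 windows of that length in the RefSeq table, 33.8% held a CCAAT box, 32.7% a GC box, 6.02% an E-box and 3.45% the amino acid response element. Windows were at hand for 28 of the 30 genes (not for Idh3a and Me2). In any of their windows, 14 genes held a CCAAT box, 20 a GC box, 3 an E-box and 2 the amino acid response element, the other being Me3. A gene with several windows has more chances of a match, so these counts cannot be set against the shares of single windows. The median GC content was 61.0% over the 36 windows of the set and 52.4% over all windows. Such matches describe letters only and say nothing of binding.

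Pcx, which makes oxaloacetate from pyruvate, and the malic enzymes, which make pyruvate from malate, were lower in replicate 2 in 3 of 3 tested, where 10.9% of all genes were called lower. Me2 had 140 TPM in replicate 2, against 214, 215 and 211 TPM in replicates 1, 3 and 4. Its log2 change was −0.55 ± 0.05 (edgeR, adjusted p = 3.93e-08). Pcx had 17.0 TPM in replicate 2, against 21.3, 21.1 and 22.2 TPM, a log2 change of −0.28 ± 0.10 (edgeR, adjusted p = 0.0385). The Pcx call was lost with DESeq2 (adjusted p = 0.0911), without replicate 4 (0.052) and with a prior that is not robust (0.0569). For Me1 the other libraries stood 7.18 times above replicate 2 per total count, with a 95% exact counting interval of 2.34 to 35.8 (edgeR, adjusted p = 0.0213). Me1 has near-identical copies over 60.1% of its transcript, and its counts are too few for more than that interval.

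Gpt2 was lower in replicate 2 as well. It had 9.49 TPM in replicate 2, against 13.2, 13.4 and 13.7 TPM, and a log2 change of −0.44 ± 0.10 (edgeR, adjusted p = 0.00341). Glud1 had 242 TPM in replicate 2, against 233, 238 and 226 TPM, and a change of 0.12 ± 0.05 with no call (edgeR, adjusted p = 0.0933); without replicate 3 it was called higher (adjusted p = 0.0431). Among the enzymes of glutamate, the transaminases Got1 and Gpt2 thus passed the test downward and Glud1 and Got2 did not pass it. Acly had 498 TPM in replicate 2, against 603, 597 and 606 TPM, with a log2 change of −0.21 ± 0.04 (edgeR, adjusted p = 0.000716). Slc25a1 had 173 TPM in replicate 2, against 180, 178 and 193 TPM, and a change of −0.03 ± 0.05 with no call (edgeR, adjusted p = 0.771).

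Subunits of the pyruvate dehydrogenase complex gave 2 lower, 1 higher and 2 without a call in replicate 2, where 22.5% of all genes were called. Dld had 143 TPM in replicate 2, against 169, 176 and 174 TPM, a log2 change of −0.21 ± 0.05 (edgeR, adjusted p = 0.0036). Pdhx had 37.3 TPM in replicate 2, against 31.9, 32.1 and 30.9 TPM, a change of 0.30 ± 0.08 (edgeR, adjusted p = 0.00956). Replicate 2 lay below the other libraries for Dld, as for 43.2% of all genes tested, and above them for Pdhx, as for 28.2%. Pdhb had 208 TPM in replicate 2, against 250, 249 and 235 TPM, a change of −0.17 ± 0.05 (edgeR, adjusted p = 0.0164), a call that DESeq2 did not make (adjusted p = 0.0683). Pdha1 and Dlat had changes of 0.09 ± 0.05 and 0.11 ± 0.05 with no call.

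Of the 12 genes of the citrate cycle, 2 were called in replicate 2, where 22.5% of all genes were. Cs was higher, with 285 TPM in replicate 2, against 271, 273 and 266 TPM, a log2 change of 0.14 ± 0.05 (edgeR, adjusted p = 0.0293) that lost its call without replicate 4 (adjusted p = 0.0553). Aco1 was lower, with 74.8 TPM in replicate 2, against 86.1, 87.7 and 83.9 TPM, a change of −0.14 ± 0.05 (edgeR, adjusted p = 0.047). The Aco1 call was lost with DESeq2 (adjusted p = 0.141), without replicate 1 (0.0844) or 3 (0.0653) and with a prior that is not robust (0.0531). The changes of the other 10 lay between −0.09, for Fh1, and 0.11, for Mdh2; Idh3a had −0.00296, Idh3b −0.000419 and Idh3g 0.08. A change that misses the threshold does not show that levels were equal. In TPM, which is not scaled like the test, replicate 2 lay below all other libraries for 18 of the 29 enzymes, where 43.2% of all genes tested did, and above them for 7, where 28.2% did; the median log2 ratio of TPM in replicate 2 over the mean of the others was −0.05 for genes of at least 5 TPM.

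Genes that act beside the 30 enzymes were taken from a list of 44, of which 39 were tested, and in replicate 2 they showed 3 lower, 2 higher and 34 without a call, where 22.5% of all genes were called. The median log2 change was −0.05. Pdk1, the kinase that inhibits pyruvate dehydrogenase, had 54.2 TPM in replicate 2, against 79.0, 82.1 and 83.9 TPM, a log2 change of −0.53 ± 0.05 (edgeR, adjusted p = 1.12e-07). Gls2, the liver-type glutaminase, had a log2 change of −0.37 ± 0.09 and Pdpr, which regulates the phosphatase of the complex, of −0.32 ± 0.09 (edgeR, adjusted p = 0.00586 and 0.0187). Sdhc, a membrane anchor of succinate dehydrogenase, had a log2 change of 0.27 ± 0.05, and Nnt, the transhydrogenase that makes mitochondrial NADPH, of 0.20 ± 0.07 (edgeR, adjusted p = 0.000398 and 0.0318). Nnt had 31.0 TPM in replicate 2, against 27.1, 28.6 and 28.7 TPM; the C57BL/6J strain is known to carry a deletion in this gene, while C57BL/6N strains do not. The most abundant genes of the list that are reported here had no call: the succinate dehydrogenase genes Sdhd (561 ± 17.1 TPM) and Sdha (299 ± 17.0 TPM), the glutamine and amino acid transporter genes Slc1a5 (304 ± 16.2 TPM) and Slc7a5 (277 ± 9.91 TPM), and the oxoglutarate carrier gene Slc25a11 (173 ± 8.75 TPM). Their log2 changes in replicate 2 lay between −0.10 and 0.01.

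Between replicates 1, 3 and 4 the enzymes varied little. Over those 3 libraries the coefficient of variation was 0.605% to 7.36% for the 28 enzymes above 10 TPM, with a median of 2.16%, where the median of all 10226 genes of at least 5 TPM was 3.93%. With replicate 2 included the medians were 5.00% for the enzymes and 6.95% for all such genes. The enzymes had a higher median level, 164 TPM against 37.1 TPM, and the part of level in this difference was not tested.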

How the data were processed

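The authors deposited raw counts made with featureCounts 1.4.6-p4 from reverse-stranded read pairs (strand option 2, both ends mapped) and GENCODE M13, per the file headers, 1 table per library, with the summed exon length of each gene. The build is mm10 per the labels; the sources used here do not state aligner settings or trimming. The assay is labelled total RNA, whereas the linked library protocol is titled for poly(A) RNA. Reads with several mapping places were left to the default of the counter in the recorded command.

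Symbols came from GENCODE M21 by identifier without version (50376 of 50600 matched). TPM was count over exon length, scaled per library. Libraries differed beyond sampling noise in each pair (chi-square per degree of freedom 4.44 to 6.61 among replicates 1, 3 and 4, and 44.6 to 49.4 with replicate 2), so each counted as 1 sample. Each replicate was tested against the other 3 with edgeR 4.0.16 (TMM, quasi-likelihood with a robust prior, genes of at least 10 summed counts, Benjamini-Hochberg, threshold 0.05); DESeq2 1.42.0 was an alternative. The robust prior was chosen over the plain one after both had been run. The fitting code was tested on simulated data. Ratios between genes were tested by exact sign-flip. Near-identical copies were sought with BLAST+ 2.17.0 (at least 95% identity over 75 bases) among GENCODE M21 transcripts; no enzyme shared exons with another gene on its strand. The enzymes, lists and ratios were chosen with earlier results of these data known. All 30 enzymes are named; of the other pathway genes, those called in the replicate with most calls (up to 6) and the 6 most abundant, of which 1 is not reported here.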

Additional observations from a re-analysis of the deposited data

Results flagged for a closer look

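Of 48 values over the 4 libraries (levels of 29 genes, 12 ratios and 7 sums), 10 had 1 library whose gap to its nearest neighbour exceeded Dixon's 95% critical value as a share of the whole range. Chance flags about 1 in 20 such groups, and the values are not independent. In 9 of the 10 the library was replicate 2. The levels were those of Idh1 at 40.1 TPM, Gpt2 at 9.49 TPM, Me2 at 140 TPM and Acly at 498 TPM, each low in replicate 2. The ratios were Idh2 to Idh1 at 2.02, Got2 to Got1 at 0.698 and Me2 to Me1 at 2052, each high in replicate 2; the last rests on 3 counts of Me1. The sums were that of Pcx and the 3 malic enzymes at 157 TPM, against 233 to 237 TPM in the other libraries, and that of all 30 genes at 4823 TPM. The remaining value was Dlat, low in replicate 4 at 93.1 TPM, against 99.4 to 101 TPM in the others.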

How the results depend on the processing

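The 13 calls in replicate 2 numbered 10 to 13 under the 8 alternatives: RLE scaling (13), no filter (13), a filter of 100 counts (12), DESeq2 (10), a prior that is not robust (11, chosen after seeing the data), and 11 to 13 without 1 of replicates 1, 3 and 4. Of the 13, 9 kept their call in each alternative that gave a value, and Pdhb, Cs, Aco1 and Pcx did not. When 1 of replicates 1, 3 and 4 was left out, log2 changes near 0 changed sign without being called, ranging from −0.0198 to 0.0168 for Idh3a, −0.00934 to 0.00474 for Idh3b, −0.0145 to 0.00384 for Suclg1, −0.0217 to 0.0702 for Suclg2 and −0.0503 to 0.00635 for Slc25a1. No enzyme was called in replicate 1, 3 or 4 under any of the 8. With no length correction the log2 ratios of Idh3b to Idh3a (−0.28) and Dlst to Ogdh (−0.0646) changed sign, as length enters them directly; so did Idh3b to Idh3a per coding base (−0.28, a length from GENCODE M21 chosen after seeing the data). Under these settings Got2 to Got1 no longer lay on the same side in every library (−0.14 and −0.20; exact p = 0.625 and 0.375), Idh3g to Idh3a (−0.94 and −0.98) and Pdhb to Pdha1 (−1.42 and −1.30) did, and Me2 to Me1 moved to 8.67 and 8.63, against 9.32 per base of exon. The Idh2 to Idh1 log2 ratio ranged from −0.42, without replicate 2, to 0.0871, without replicate 1. The summed level was 5518 TPM over nuclear protein-coding genes alone and 5756 CPM without length correction, and 5120.1 to 5279.95 TPM when 1 replicate was left out. Coding length from RefSeq proteins was not run. No paired analysis was possible because there is 1 group.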
